A study of Mus musculus with 4 samples.

Results

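The genes described here are 10 inflammatory signals and enzymes, namely the neutrophil chemokines Cxcl2 and Cxcl1, the chemokines Ccl3 and Ccl4, the cytokines Il1b, Tnf and Il6, the interleukin-1 receptor antagonist Il1rn, and the inducible enzymes Nos2 and Ptgs2. They were selected on their gene symbols, with the difference between the cell fractions on these same arrays already known, so that difference is given below as a description and without a test. All 10 were on the array, out of 18193 genes named by at least 1 probe set, through 15 probe sets that name only them. Cxcl1 and Il1rn had 3 probe sets each, Ptgs2 had 2, and the other 7 genes had 1.

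RNA came from primary IgA-bearing cells of the small intestine, taken from female Balb/c mice of 9 weeks that were titled wild type and had no treatment. Cells with CD11b, an integrin subunit typical of myeloid cells, were set against cells without it, 2 arrays to a fraction. In each fraction the One-Cycle kit labelled 1 µg of RNA for 1 array, and the 3' IVT Express kit labelled 0.1 µg for the other. Each kit thus holds a pair of arrays that differ in CD11b, and pairs of values below give the One-Cycle array first. Both fractions carry the same strain, sex and age, and nothing there says whether the arrays came from separate mice or sorts, so the spread between them may be technical.

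In the gut these genes are best known from macrophages, neutrophils, epithelium and stroma. Signals from Toll-like receptors or from interleukin-1 free the transcription factor NF-kB, which together with AP-1 switches on chemokine and cytokine genes. The same signals induce inhibitors such as Nfkbia and Tnfaip3, which hold NF-kB back, and Zfp36, which destroys short-lived cytokine mRNAs. Intestinal IgA plasma cells have themselves been reported to make TNF and inducible nitric oxide synthase, the product of Nos2.

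Signals below are quantile-normalized, in arbitrary units of array brightness. A fold is the ratio of (signal + 3) in the CD11b-positive array to that in the CD11b-negative array of the same kit, so it understates the difference of weak genes. A probe set counted as above the low-signal limit where its mean over the 4 arrays exceeded 10.6, the 40th percentile of all probe sets. Of the 10 genes, 8 passed, each with all 4 arrays above that limit, and Il6 and Nos2 did not.

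Cxcl2 and Il1b stood at least 2-fold higher in CD11b-positive cells with each kit. These were 2 of the 10 genes, while 0.877% of the 12650 genes above the limit were as much higher and 1.11% as much lower. A total of 6 of the 10 were higher with both kits by any amount (Cxcl2, Ccl3, Il1b, Il6, Nos2 and Ptgs2). Of the 8 above the limit, 4 were, where 31.6% of the 12650 genes above it were. Ccl4, Il1rn and Tnf were lower with both kits, where 30.5% of these genes were, and Cxcl1 went opposite ways by the probe set that stood for it. The directions of Cxcl1, Il1rn and Ptgs2 differ between their probe sets, as given below. Because the genes were picked with this contrast in view, nothing is read from these shares.

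**Figure D1:**
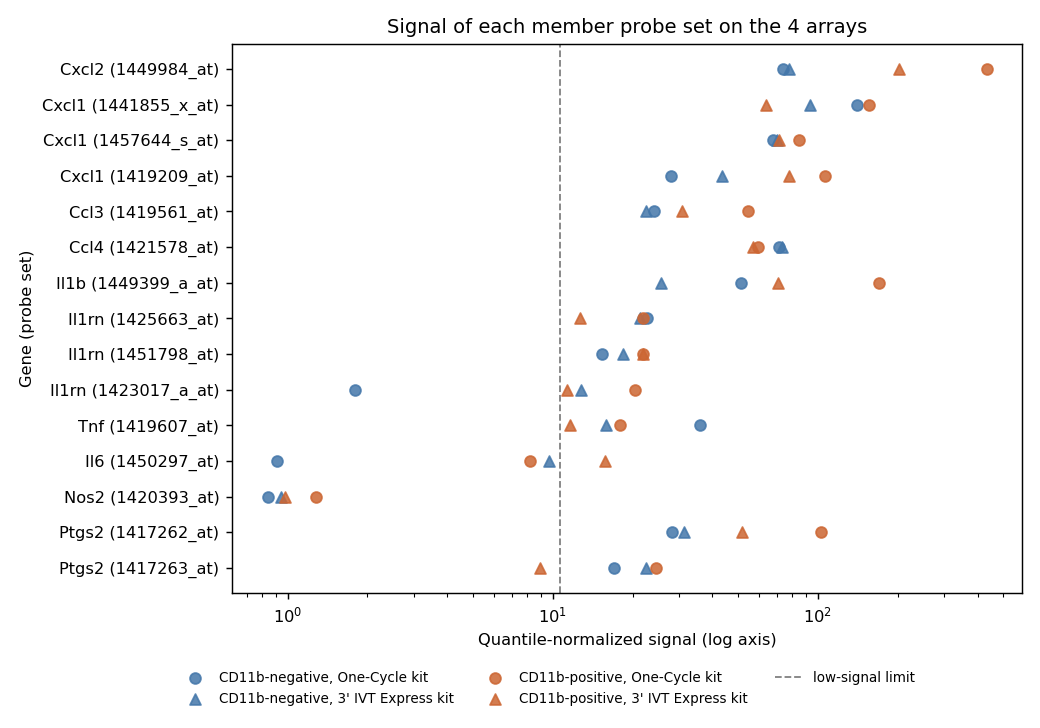
Quantile-normalized signal (horizontal log axis) of all 15 probe sets on the 4 arrays, with fractions by colour and labelling kits by shape; the dashed line is the low-signal limit of 10.6. Both CD11b-positive arrays lie above both CD11b-negative arrays for Cxcl2, at 432 and 203 against 74.2 and 77.5, while Nos2 lies below the limit on every array.

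Cxcl2 and Cxcl1 encode chemokines that draw neutrophils through the receptor Cxcr2, and the genes are neighbours on chromosome 5. Cxcl2 gave 432 and 203 in CD11b-positive cells, and 74.2 and 77.5 in CD11b-negative cells. The CD11b-negative arrays were nearly level, and the fractions did not overlap. The mean was 318 ± 162 against 75.8 ± 2.38 (SD, n = 2 each), and the folds within the kits were 5.64 and 2.56.

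Cxcl1 gave different answers by probe set. The probe set 1419209_at gave 106 and 78.0 in CD11b-positive cells, and 28.0 and 43.7 in CD11b-negative cells. Its fractions did not overlap, and the folds were 3.53 and 1.74. The probe set 1457644_s_at was nearly flat, at 85.04 and 71.1 against 67.9 and 70.3, with folds of 1.24 and 1.01. The brightest, 1441855_x_at, which stood for the gene in counts, overlapped between fractions at 156 and 63.6 against 140.3 and 93.4. In Affymetrix naming, the endings _x_at and _s_at mark probe sets that can also bind other transcripts. The probe set without such an ending was thus the one with the clear difference, at a mean log2 difference of 1.31, against 0.16 for 1457644_s_at and -0.19 for 1441855_x_at. Which of the probe sets measures Cxcl1 best was not tested.

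The bases just upstream of these genes are shown because Cxcl2 and Il1b differed most and Cxcl1 adjoins Cxcl2. They come from RefSeq on GRCm38.p6, with the 250 bases before each transcription start read on the gene's own strand. Capitals mark matches to the kappa-B consensus of NF-kB, searched on both strands; in Cxcl2 and Cxcl1 a match on each strand overlaps, and the capitals join them. The windows are chr5:90903649-90903898 on the plus strand for Cxcl2, chr5:90890995-90891244 on the plus strand for Cxcl1 and chr2:129371140-129371389 on the minus strand for Il1b.
Cxcl2: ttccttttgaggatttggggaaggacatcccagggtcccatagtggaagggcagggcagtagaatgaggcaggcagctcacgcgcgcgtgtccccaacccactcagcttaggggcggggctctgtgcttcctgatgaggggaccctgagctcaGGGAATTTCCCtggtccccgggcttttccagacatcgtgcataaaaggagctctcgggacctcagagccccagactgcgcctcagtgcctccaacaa
Cxcl1: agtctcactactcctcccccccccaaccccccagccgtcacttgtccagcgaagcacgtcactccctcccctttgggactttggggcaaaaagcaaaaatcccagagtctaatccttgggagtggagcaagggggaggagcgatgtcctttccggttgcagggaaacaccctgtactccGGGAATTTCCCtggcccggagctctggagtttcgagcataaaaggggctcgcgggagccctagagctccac
Il1b: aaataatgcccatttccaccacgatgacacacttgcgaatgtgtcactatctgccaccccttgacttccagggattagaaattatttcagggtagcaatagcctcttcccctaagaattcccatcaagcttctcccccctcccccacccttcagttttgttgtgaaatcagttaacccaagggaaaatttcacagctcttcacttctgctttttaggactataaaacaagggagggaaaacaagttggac

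In Cxcl2 the joined match ran from 97 to 87 bases before the start, and in Cxcl1 from 71 to 61, with the same letters in both. The Il1b window held none. Promoters were found for 8 of the 10 genes (not for Ccl4 and Nos2), and 3 of these 8 held a match, the other one being Il6, from 44 to 35 bases before the start. Over all 32851 windows of this length, 3.9% held one. The AP-1 motif TGANTCA, searched on both strands, was in the window of Il6 and in 1 of 3 windows of Il1rn, and in 6.75% of all windows. Counted by gene, 4.46% of 27025 genes had a kappa-B match and 7.82% an AP-1 match in a window. No kappa-B match overlapped an AP-1 match in these genes. These are matches of letters and not measured binding.

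Il1b encodes interleukin-1 beta, a fever-inducing cytokine that is cut to its active form by the inflammasome. CD11b-positive cells gave 169 and 70.8, and CD11b-negative cells 51.4 and 25.5. The fractions did not overlap, and within each fraction the One-Cycle array was the brighter. The mean was 120.0 ± 69.7 against 38.5 ± 18.3 (SD, n = 2 each). The folds within the kits were 3.17 and 2.59, closer to each other than those of Cxcl2. The log2 difference between fraction means was 1.52, and 0.91 without the One-Cycle array of the CD11b-positive fraction.

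Il1rn, which encodes the antagonist that occupies the interleukin-1 receptor without signalling, did not follow Il1b. The probe set 1425663_at gave 21.9 and 12.6 in CD11b-positive cells, and 22.7 and 21.4 in CD11b-negative cells. The probe set 1451798_at went the other way, at 21.9 and 21.8 against 15.3 and 18.4. The probe set 1423017_a_at was at 20.5 and 11.3 against 1.79 and 12.8, so its 4.90-fold difference in the One-Cycle kit rested on 1 weak array and was absent with the other kit, at 0.908. Over its 3 probe sets, no direction held for Il1rn. With the deposited scaling, median centring and cyclic loess, the brightest probe set was another one, and the mean log2 difference turned from -0.34 to 0.53, 0.34 and 0.30. Relative to the median of all genes, these were 0.11, 0.13 and 0.31.

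Ptgs2 encodes cyclooxygenase-2, the inducible enzyme of prostaglandin synthesis. Its brighter probe set, 1417262_at, gave 103 and 51.8 in CD11b-positive cells, and 28.2 and 31.3 in CD11b-negative cells. The fractions did not overlap, with folds of 3.39 and 1.60. The dimmer probe set, 1417263_at, disagreed: it was at 24.5 and 8.94 against 17.0 and 22.5, which is 1.38-fold higher with the One-Cycle kit and 2.13-fold lower with the other.

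Ccl3 and Ccl4, neighbouring genes on chromosome 11, encode the chemokines MIP-1 alpha and MIP-1 beta, which attract monocytes and T cells. Ccl3 gave 54.6 and 30.7 in CD11b-positive cells, and 24.0 and 22.5 in CD11b-negative cells. Its fractions did not overlap, and the folds were 2.13 and 1.32. Ccl4 had 59.2 and 57.0 against 71.2 and 73.5, so both CD11b-positive arrays were the lower, by 1.19-fold and 1.27-fold. Relative to the median of all genes, its mean log2 difference lay between -0.33 and -0.30 under all 5 scalings; on the deposited signals, where all genes are shifted up, it was 0.09 before that median was taken off.

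Tnf, the cytokine tumour necrosis factor, was the one of the 3 cytokines with lower signals in CD11b-positive cells. These were 17.96 and 11.7, against 35.8 and 15.9 in CD11b-negative cells, 1.85-fold and 1.29-fold lower. The fractions overlapped, since the One-Cycle CD11b-positive array was above the 3' IVT Express CD11b-negative one.

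Il6, a cytokine that supports antibody-secreting cells, was at or near background. CD11b-positive cells gave 8.21 and 15.8, CD11b-negative cells 0.916 and 9.71, and 1 of the 4 arrays was above the limit. The fractions overlapped, and no fold is given. Nos2 was at 1.28 and 0.977 against 0.842 and 0.944, far below the limit on all 4 arrays. With a single probe set, these values do not show that Nos2 mRNA was absent. Its place among the 6 genes higher with both kits rests on differences of less than 1 unit of signal.

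**Figure D2:**
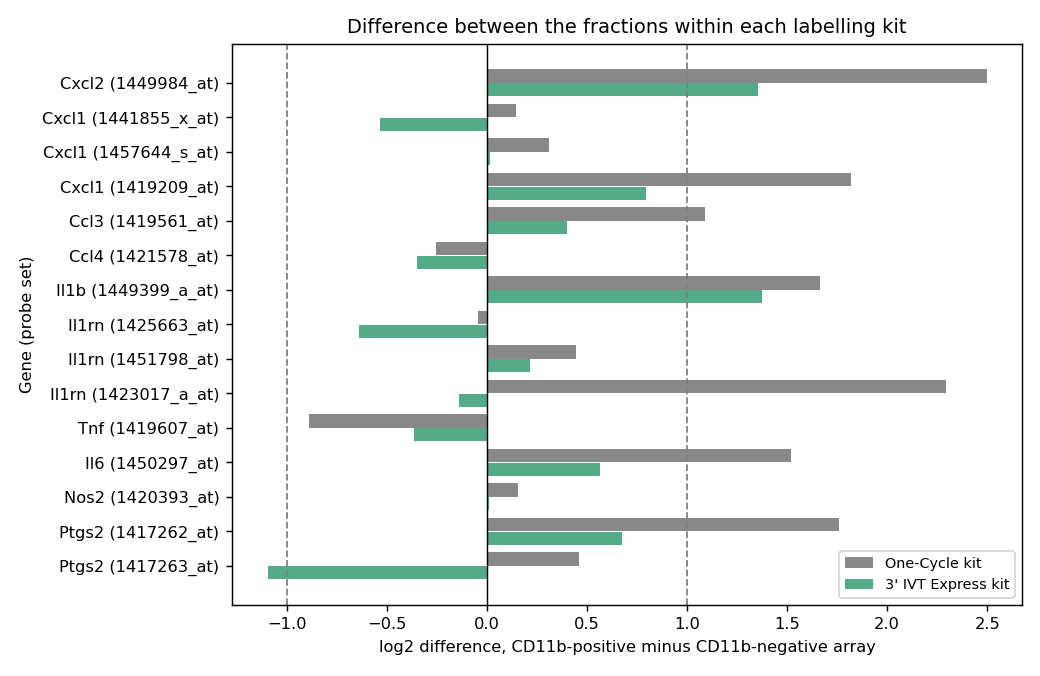
Log2 difference between the CD11b-positive and the CD11b-negative array of the same labelling kit for each of the 15 probe sets; dashed lines mark 2-fold. Cxcl2 (2.50 and 1.35) and Il1b (1.66 and 1.37) pass the upper line with both kits, and the probe sets of Cxcl1, Il1rn and Ptgs2 disagree among themselves.

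Of the 15 probe sets, 9 were higher with both kits, 3 were lower with both and 3 went opposite ways. The 9 include those of Il6 and Nos2, below the limit, and more than 1 of Cxcl1. Counted by gene, 31.6% of all genes above the limit were higher with both kits. All 9 had the larger difference with the One-Cycle kit. Neither count was made over all probe sets, so nothing is read from them. Over the 10 genes the median log2 difference was 0.62 for One-Cycle arrays and 0.21 for 3' IVT Express arrays, and over the 8 above the limit 0.62 and 0.03. All genes above the limit had medians of -0.01 and 0.01. The 8 genes thus had a 3' IVT Express median close to that of all genes. Both CD11b-positive arrays lay above both CD11b-negative arrays for 5 of the 10 genes (Cxcl2, Ccl3, Il1b, Ptgs2 and, at background, Nos2). Without Nos2 that is 4 of the 8 above the limit, where this held for 18.1% of all genes above it. With the 2-fold rule, the closest gene inside was Cxcl2, at 2.56-fold in its weaker kit. Outside, Ptgs2 stood at 1.60-fold and Ccl3 at 1.32-fold, as did the Cxcl1 probe set 1419209_at at 1.74-fold.

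The deposited signals were not on 1 scale: the median difference of all genes was 0.42 log2 on the signals as deposited, 0.21 after centring on the median and between -0.05 and 0.0025 under the other 3 scalings. Cxcl2 ranged from 1.86 to 2.35 and Il1b from 1.40 to 1.87 over all 5. Ccl3 stayed between 0.56 and 1.00 and the brighter Ptgs2 probe set between 1.04 and 1.49. Tnf stayed lower, from -0.80 to -0.38. The Cxcl1 probe set 1441855_x_at ran from -0.24 to 0.23, but from -0.21 to -0.19 relative to the median of all genes.

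**Figure D3:**
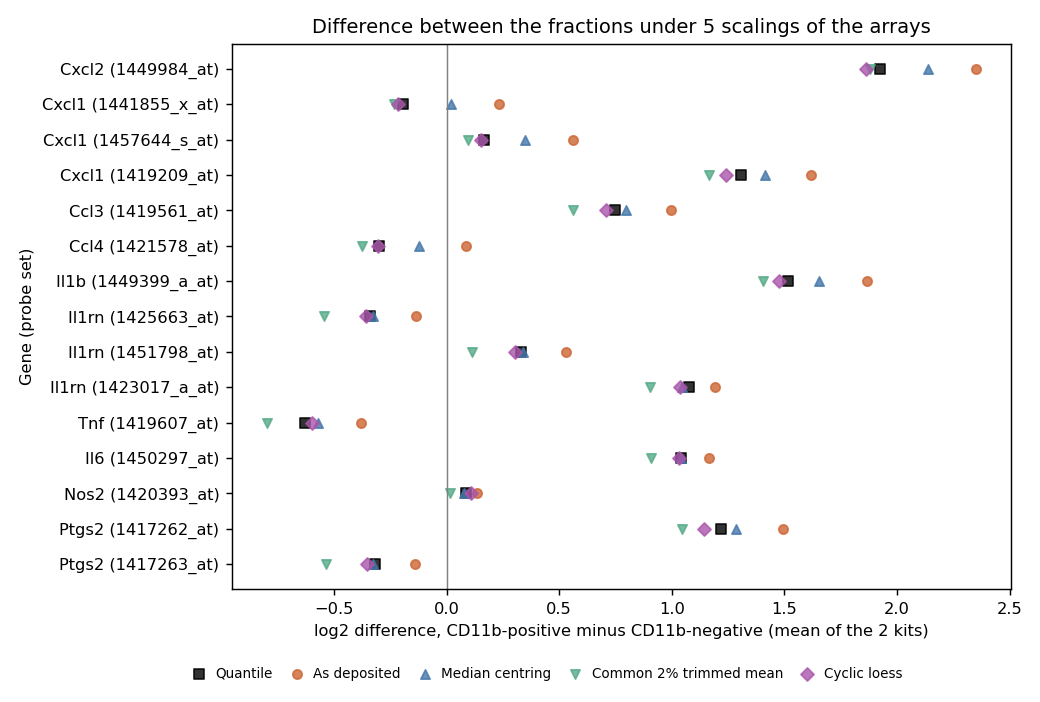
Log2 difference between the fractions (mean of the kits) for the 15 probe sets under 5 ways of scaling the arrays. Ccl4 (-0.38 to 0.09) and the Cxcl1 probe set 1441855_x_at cross 0 on the deposited signals, where the median of all genes is itself 0.42.

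The genes whose profile over the 4 arrays lay closest to Cxcl2, after centring each gene on its own mean, were Fitm1, Olfr1508 and Spc24. Their root mean square differences from it were 0.19, 0.22 and 0.23 log2 units. Fitm1 had 70.1 and 24.5 against 11.7 and 10.6, and Spc24, a kinetochore subunit, had 218 and 133 against 54.4 and 58.5. Closest to Il1b were Ccna2, which encodes cyclin A2, then Mbd3 and Lamc3, at 0.16, 0.18 and 0.20. Ccna2 had 700.4 and 382 against 289 and 139.7. Olfr1508, Mbd3 and Lamc3 were under the low-signal limit on both CD11b-negative arrays. Cxcl2 and Il1b lay 0.41 apart, farther than either lay from its closest genes listed here. Over 4 arrays, many genes can share a profile.

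Other genes of these pathways were counted from lists of textbook members. With limma and no block, 0% of the 12650 genes passed at a Benjamini-Hochberg adjusted p under 0.05, while before adjustment 386 genes were higher and 459 lower at a p under 0.05. With the labelling kit as a block, 4.41% of genes were called higher and 4.69% lower. With the block only 1 residual degree of freedom is left for a gene, so its calls lean on a spread shared across genes. On the signals as deposited, it called 3658 higher and 147 lower, against 558 and 593 here.

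The receptors of these ligands showed few differences. Of 18 listed, 16 were on the array and 10 were above the limit; 0 passed without the block, 0 at an unadjusted p under 0.05, and 1 was lower with it. That was Ptger4, a receptor for prostaglandin E2, at 394 and 236 against 620 and 401 in CD11b-negative cells (limma adjusted p = 5.14e-05 with the block). Il1rap, the shared subunit of interleukin-1 receptors, was at 44.1 and 20.1 against 72.0 and 36.5, and the decoy receptor Il1r2 at 28.5 and 44.1 against 17.7 and 35.04, neither with a call. Cxcr2, the receptor for Cxcl1 and Cxcl2, was below the limit, as was Il1r1, the signalling receptor for interleukin-1. The median log2 difference of the 10 was -0.26, against 0.0025 for all genes.

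Other chemokines were more often lower than higher in CD11b-positive cells. Of 14 above the limit, 0 were higher and 3 lower with the block, and 0 passed without it (2 lower at an unadjusted p under 0.05). Over all genes, the block called 4.41% higher and 4.69% lower. With both kits 3 of the chemokines were higher and 8 lower, where 31.6% and 30.5% of all genes above the limit were. Cxcl3, a neutrophil chemokine closely related to Cxcl2, was weak but did not overlap between fractions, at 18.05 and 15.3 against 9.31 and 8.43, 1.71-fold and 1.60-fold higher without a call. Ccl6 and Ccl22 were the others higher with both kits. Cxcl10, an interferon-induced chemokine, was 2.03-fold lower, at 58.8 and 56.6 against 121 and 119. Ccl5, a chemokine of T and NK cells, was at 502 and 291 against 1273 and 495, and Ccl25, an epithelial chemokine for gut-homing cells, at 69.5 and 35.8 against 103 and 95.4. The median of the 14 was -0.28. On the deposited signals, with their upward shift of all genes, 6 were higher and 3 lower with both kits. The list's median relative to all genes lay between -0.41 and -0.27 under the 5 scalings.

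Among 17 other cytokines above the limit, 2 were higher and 1 lower with the block, and 0 passed without it (2 higher and 2 lower at an unadjusted p under 0.05). Il18, which the inflammasome processes as it does interleukin-1 beta, was 1.49-fold higher, at 253 and 286 against 163 and 198. Mif, macrophage migration inhibitory factor, was 1.37-fold higher. Csf1, the growth factor of macrophages, was lower at 1.21 and 8.81 against 17.9 and 50.5, with both CD11b-positive arrays under the limit. Csf2, the growth factor GM-CSF, was at 3.49 and 2.73 against 16.5 and 21.3, without a call (adjusted p = 0.153 with the block). Vegfa, a growth factor of vessels, was at 29.8 and 26.8 against 10.7 and 16.4, also without a call. Il1a and Ccl2 were below the limit.

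Of 10 genes of interleukin-1 processing, 1 was higher with the block and 0 lower; without it 0 passed, with 2 higher at an unadjusted p under 0.05. Pycard, the adaptor ASC that joins inflammasome sensors to caspase-1, was at 2361 and 2523 against 1391 and 1605 (1.63-fold, adjusted p = 1.57e-08 with the block). Casp1 itself had 258 and 209.9 against 324 and 267, without a call. Mefv, which encodes the sensor pyrin, was at 23.8 and 26.9 against 3.28 and 13.4, also without one.

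Genes listed as feedback inhibitors of inflammatory mRNA and signalling mostly stood lower. The list also holds Nfkbiz, Bcl3, Nfkbib and Rc3h1, so it is not limited to inhibitors that NF-kB induces. Of 19, all above the limit, 16 were lower with both kits and 1 was higher. Over all genes above the limit, 30.5% were lower and 31.6% higher with both kits. With the block 10 were called lower and 0 higher, against 4.69% lower over all genes; without it 0 passed, with 7 lower at an unadjusted p under 0.05. Dusp1, a phosphatase that switches off MAP kinases, was at 605 and 419 against 1630 and 1280. Nfkbia was at 3877 and 3498 against 6685 and 5750, and Zfp36 at 1686 and 1475 against 2441 and 2580. Socs3, an inhibitor of cytokine receptors, was at 79.3 and 189 against 140.5 and 613, so its fractions overlapped. Zc3h12a, a ribonuclease of cytokine mRNAs, was at 21.8 and 51.4 against 67.4 and 69.2. The median of the list was -0.38. On the deposited signals 6 were lower and 6 higher with both kits. The number called lower with the block was 2 on the deposited signals, 7 after centring on the median, 9 after cyclic loess and 9 with trimmed means made equal, while the median relative to all genes stayed between -0.39 and -0.37.

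Of 26 activators of NF-kB and MAP kinases, 0 were higher and 4 lower with the block (Irak1, Irak2, Rela and Cebpb), and 0 passed without it (1 higher and 1 lower at an unadjusted p under 0.05). Rela, an activating NF-kB subunit, was 1.38-fold lower. Cd14, a co-receptor for endotoxin and also a macrophage marker, was at 65.0 and 55.6 against 36.4 and 34.0, without a call. On the deposited signals, with their upward shift of all genes, these counts were 5 higher and 0 lower. The list's median relative to all genes lay between -0.05 and -0.02 under the 5 scalings. Of 10 nitric oxide and arginine enzymes and of 10 prostaglandin and leukotriene enzymes, 0 were called with or without the block, and 0 had an unadjusted p under 0.05 without it. Ass1, which recycles citrulline towards arginine, was at 21.2 and 22.9 against 40.6 and 37.7, and Ltc4s, leukotriene C4 synthase, at 16.3 and 12.4 against 28.2 and 22.9. Arg1, which competes with Nos2 for arginine, was below the limit.

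**Figure D4:**
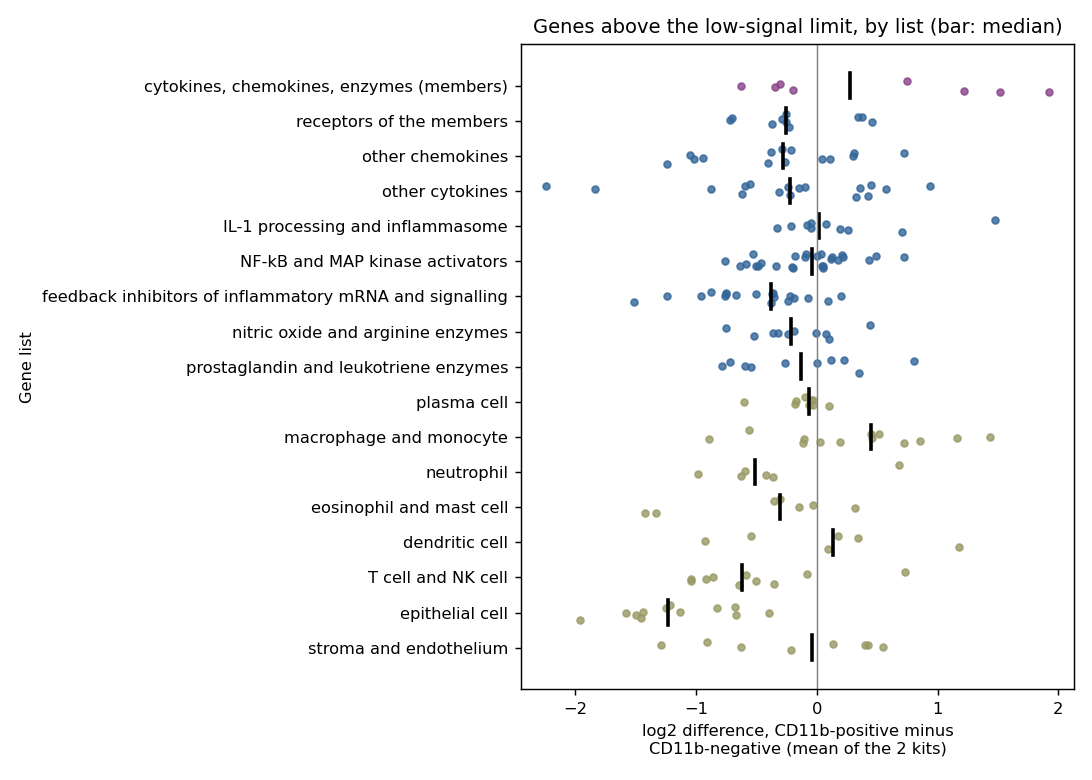
Log2 difference between the fractions (mean of the kits) for each gene above the low-signal limit, by list, with a bar at each list's median. Genes listed as feedback inhibitors lie mostly left of 0 (median -0.38), macrophage and monocyte markers mostly right (0.45) and epithelial markers left (-1.23).

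Markers of the sort and of other cells were read beside these values. Itgam, the gene of CD11b, was at 189 and 109 in CD11b-positive cells, and 28.3 and 15.8 in CD11b-negative cells. Plasma cell markers were bright in both fractions: all 9 on the array were above the limit, and their summed signal was 53268 and 53118 against 55255 and 56750. That sum is carried by very bright probe sets such as those of Igha and Jchain. Quantile normalization gives every array the same set of values, which holds such a sum near level. Nothing is therefore read from the sum about plasma cell content. With both kits 7 of the 9 were lower, where 30.5% of all genes above the limit were. Sdc1, the plasma cell surface marker CD138, was called lower with the block, at 3472 and 4155 against 5625 and 5941 (limma adjusted p = 2.59e-08). On the deposited signals, where all genes are shifted up, 7 were higher and 2 lower with both kits, and the block called 2 higher and 0 lower. The block called 2 lower after median centring, 5 with trimmed means made equal and 5 by cyclic loess, each with 0 higher. The plasma cell median relative to all genes was -0.07 after quantile normalization and between -0.41 and -0.31 under the other scalings. Of 16 macrophage and monocyte markers on the array, 13 were above the limit, 5 of these higher and 3 lower with both kits. Over all genes above the limit, 31.6% were higher and 30.5% lower, so nothing is read from these counts. With the block 2 of the markers were called higher, C1qb and Itgax. The complement subunit C1qb was at 58.9 and 34.1 against 16.1 and 21.01, and the integrin Itgax at 98.9 and 126 against 59.4 and 61.7. Lyz2, lysozyme of myeloid cells, was at 219 and 98.0 against 136 and 76.2, and Cd68 at 50.5 and 66.5 against 29.6 and 57.7. Their summed signal was 775 and 596, against 540 and 474 in CD11b-negative cells. Their median log2 difference was 0.71 for One-Cycle arrays but 0.0017 for 3' IVT Express arrays. Csf1r and Adgre1, which define macrophages, were at 74.0 and 58.8 against 85.8 and 59.2, and at 48.0 and 38.1 against 55.7 and 38.8. C1qa was at 49.7 in the One-Cycle CD11b-positive array and at most 2.72 elsewhere, and Cx3cr1, Mrc1 and Cd163 were below the limit.

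The 5 macrophage markers that were higher with both kits were C1qb, Itgax, Cd14, Cd68 and Lyz2. C1qb was 3.24-fold and 1.54-fold higher, and Itgax 1.63-fold and 1.99-fold. Cd14 was 1.73-fold and 1.59-fold higher, Cd68 1.64-fold and 1.14-fold, and Lyz2 1.60-fold and 1.28-fold. The 3 that were lower with both kits were Mertk, Adgre1 and Csf1r. Mertk was 1.52-fold and 1.44-fold lower, Adgre1 1.15-fold and 1.02-fold, and Csf1r 1.15-fold and 1.01-fold. The rest of the markers above the limit went opposite ways by kit. The folds of Cxcl2 were 5.64 and 2.56, and those of Il1b 3.17 and 2.59. The part of macrophage RNA in the values of Cxcl2 and Il1b was not tested, and in sorted bulk RNA more cells of a type cannot be told apart from more RNA per cell.

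Of the neutrophil markers, 0 were called by limma with or without the block (1 lower at an unadjusted p under 0.05 without it). Of 12 on the array, 6 were above the limit. Of those, 1 was higher with both kits (Mmp9) and 4 were lower (Csf3r, Ngp, Ltf and Mpo). Over all genes above the limit, 31.6% were higher and 30.5% lower. The median log2 difference of the 6 was -0.88 for One-Cycle arrays and -0.27 for 3' IVT Express arrays. The granule protein genes S100a8 and S100a9 were below the limit in both fractions. The summed signal of the 12 was 154 and 159, against 249 and 167 in CD11b-negative cells, so it was closer to level with the 3' IVT Express kit. Epithelial markers were lower in the CD11b-positive fraction: 11 of 12 were lower with both kits and with the block, and their sum was 3095 and 2349 against 5401 and 5752. Of 10 T cell and NK cell markers, 6 were called lower with the block (Cd3e, Cd3g, Cd8a, Nkg7, Gzma and Gzmb) and 0 higher. Over all genes 4.69% were called lower. Of the 6, Cd3e went opposite ways by kit, at 49.8 and 43.4 against 187 and 39.4. The number called lower was 1 on the deposited signals, 2 after median centring, 4 with trimmed means made equal and 5 by cyclic loess. The median log2 difference of the 10 markers was -0.62, with -1.07 for One-Cycle and -0.29 for 3' IVT Express arrays. Their sum was 2324 and 1159 against 4367 and 1604. The part of T and NK cell RNA in the lower values of Ccl5 was not tested. Among eosinophil and mast cell markers the block called 1 lower (Prg2), among dendritic cell markers 1 lower (Itgae), and among stromal and endothelial markers 0. The part of epithelial RNA in the lower values of Ccl25 and of the genes listed as feedback inhibitors was not tested.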

How the data were processed

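The authors deposited intensity values, 1 linear MAS5 signal per probe set and array, made by Expression Console (Affymetrix), per the submitters' processing notes, which name no version or scaling target. Of 45101 probe sets, 34945 name 1 gene. Arrays were quantile-normalized after removal of 64 control probe sets, 3 was added, and log2 was taken. The brightest probe set stood for a gene, and genes with a mean signal under the 40th percentile were left out of tests. The remaining 12650 genes were fitted with limma 3.58.1 in R 4.3.3 (trend, 2-sided, Benjamini-Hochberg), first with no block and then blocked by labelling kit; the script was tested on simulated data. Deviations from the fraction means of arrays of the same kit correlated over genes (r = 0.385), and the labels give the kit. An exact permutation test of 2 against 2 arrays cannot go below 0.333. The number of arrays limits the precision.

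The members and lists were chosen with earlier results of these data known. The rule for named genes took all members, the 3 largest differences of each list among genes that went the same way in both kits, those past 2-fold in both kits, and the 3 profiles nearest to each member past 2-fold in both. Only part of the genes it picked are given. Other genes, such as Nfkbia, Zfp36, Rela, Il18, Mif, Cxcl3, Lyz2, Cd68, Csf1r, Adgre1, Mertk and C1qa, were chosen after their values were seen. Symbols come from the platform annotation, and 34754 probe sets matched the GRCm38.p6 gene table by gene identifier. The alternatives were other pseudocounts (1 and 12), other scalings, other low-signal filters, other probe set rules, no trend, the block, each kit alone, and leaving out each array. The block under the other scalings was added after seeing the data.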

Additional observations from a re-analysis of the deposited data

How the results depend on the processing

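With limma, 0 genes passed without the block, except on leaving out a CD11b-positive array. The labelling kit as a replicate block gave 1151 called genes, and with it 3805 on the deposited scaling, 2163 after median centring, 951 with trimmed means made equal and 1015 by cyclic loess. Leaving out 1 array in turn gave 0 to 25, namely 25 without CD11b-positive replicate 1, 4 without CD11b-positive replicate 2 and 0 without either CD11b-negative array. The number of members at least 2-fold higher within both kits was 2 under all 8 other scalings, pseudocounts and probe set rules. Within the One-Cycle kit alone it was 5, Il6 among them though below the limit, and within the 3' IVT Express kit alone 2. The share of all genes was not counted for a single kit, so nothing is read from these single-kit counts. Members higher by any amount with both kits numbered 5 to 7. On leaving out 1 array, which leaves the kits uneven, Cxcl2 ran from 1.40 to 2.40 log2, Il1b from 0.91 to 2.05, Ptgs2 from 0.74 to 1.62, Ccl3 from 0.36 to 1.09, Tnf from -1.14 to -0.11 and Cxcl1 from -0.83 to 0.42. Without cross-hybridising probe sets Cxcl1 stood at 1.31, and with the mean of all its probe sets at 0.43. The mean of all probe sets lowered Ptgs2 to 0.45. Il1rn ran from -0.68 to 0.53 over its 12 alternatives, with 6 below 0. Low signal over background limits Il6 and Nos2, and 2 arrays per fraction limit every value.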
